A study of Mus musculus with 7 samples.

Results

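The angiopoietin and Tie receptor genes described here are 7 of the 32285 genes in the count matrices, each taken as the single row that carries its symbol: Angpt1, Angpt2, Tek, Tie1, Ptprb, Svep1 and Foxo1. They were measured by single-nucleus RNA sequencing of fresh-frozen brain (subcortex, thalamus and hippocampus by the labels) from 5xFAD +/- mice, in which human amyloid transgenes lead to plaques. Every mouse was 6 months old and had received an adeno-associated virus (AAV) through the retro-orbital sinus at 4 months of age. There were 4 libraries of the ANGPT2 AAV group (a male and a female in each of batches 1 and 2) and 3 of the Control AAV group (a male and a female in batch 1, a male in batch 2). All groups carried the 5xFAD alleles, and no mouse without them or without a virus was among the samples used here. The serotype, promoter and target cell of the viruses, the species of the ANGPT2 sequence and the content of the Control AAV are not given in the sources used here. The labels do not say in words that each library is 1 mouse, so p-values measure the spread between these libraries.

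Angiopoietins are secreted ligands of the receptor tyrosine kinase TIE2, which Tek encodes. Angiopoietin-1, made by cells around vessels, activates TIE2 and keeps vessels quiescent, whereas angiopoietin-2 can act as an antagonist or a weak agonist depending on the context and is usually made by endothelial cells themselves. TIE1 is a related receptor that modulates TIE2, the phosphatase VE-PTP (Ptprb) removes phosphate from TIE2, SVEP1 is an extracellular matrix protein that binds TIE1, and the transcription factor FOXO1 is held out of the nucleus when TIE2 signals through AKT.

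Levels are given as CPM, that is, counts of the gene's unique molecular identifiers (UMIs) scaled to a total of 1000000 UMIs over all genes in the same nuclei. Libraries held 25466033 to 100529717 UMIs, and the median per barcode was 3678 to 8278 in batch 1 and 2262 to 3407 in batch 2. After filtering, 54230 nuclei were kept and grouped into 15 named classes, while another 10 clusters, between 7.70% and 32.2% of the nuclei per library, had no name. The 7 genes took no part in the clustering and are not among the markers that named the classes, so their levels in a class were not used to form it. The endothelial class was 1 cluster of 491 nuclei, in which all 13 endothelial markers were detected in every library, with a summed level of 11300 to 19595 CPM in ANGPT2 AAV libraries and 12914 to 21749 CPM in Control AAV libraries. Markers of other classes were present in it too, such as the 11 mural markers at 962 to 3767 CPM in ANGPT2 AAV libraries and 1786 to 3640 CPM in Control AAV libraries, while the 9 fibroblast markers summed to 0 to 109 CPM in ANGPT2 AAV libraries and 45.7 to 57.5 CPM in Control AAV libraries. The 9 oligodendrocyte markers summed to 871 to 2529 CPM in ANGPT2 AAV libraries and 1066 to 3142 CPM in Control AAV libraries, and the 9 astrocyte markers to 1220 to 1837 CPM in ANGPT2 AAV libraries and 872 to 1147 CPM in Control AAV libraries, without overlap. The 8 thalamic excitatory neuron markers did not overlap either, at 1815 to 2288 CPM in ANGPT2 AAV libraries and 1423 to 1767 CPM in Control AAV libraries. In all, 17 marker lists were compared, and 4.02% of the single genes tested in this class did not overlap. The female ANGPT2 AAV library of batch 1 stood apart in its endothelial nuclei, with the 9 choroid plexus markers at 2815 CPM, against 109 to 610 CPM in the other 6 libraries, and with the highest level of the 9 excitatory neuron markers, 2035 CPM, against 503 to 1347 CPM. Libraries shared 1941 barcode sequences.

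Both receptor genes and the phosphatase gene were read mainly or largely in endothelial nuclei. Tek averaged 485 ± 189 CPM in endothelial nuclei (SD, n = 7 libraries), and the next class, fibroblasts, averaged 5.26 ± 6.04 CPM. Tie1 averaged 153 ± 34.1 CPM in endothelial nuclei, and the next class, mural nuclei, averaged 3.17 ± 6.93 CPM. Ptprb averaged 1483 ± 430.2 CPM in endothelial nuclei, followed by committed oligodendrocyte precursors at 27.3 ± 31.0 CPM, a value that rests on 31 UMIs and was 6.80 CPM in nuclei of at least 1000 UMIs thinned to that number, below the 18.8 CPM of fibroblasts. For these 3 genes every endothelial value in the 7 libraries lay above every value of any other class. Every other step between neighbouring classes in the order of these 3 genes lay within the spread between libraries.

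**Figure D1:**
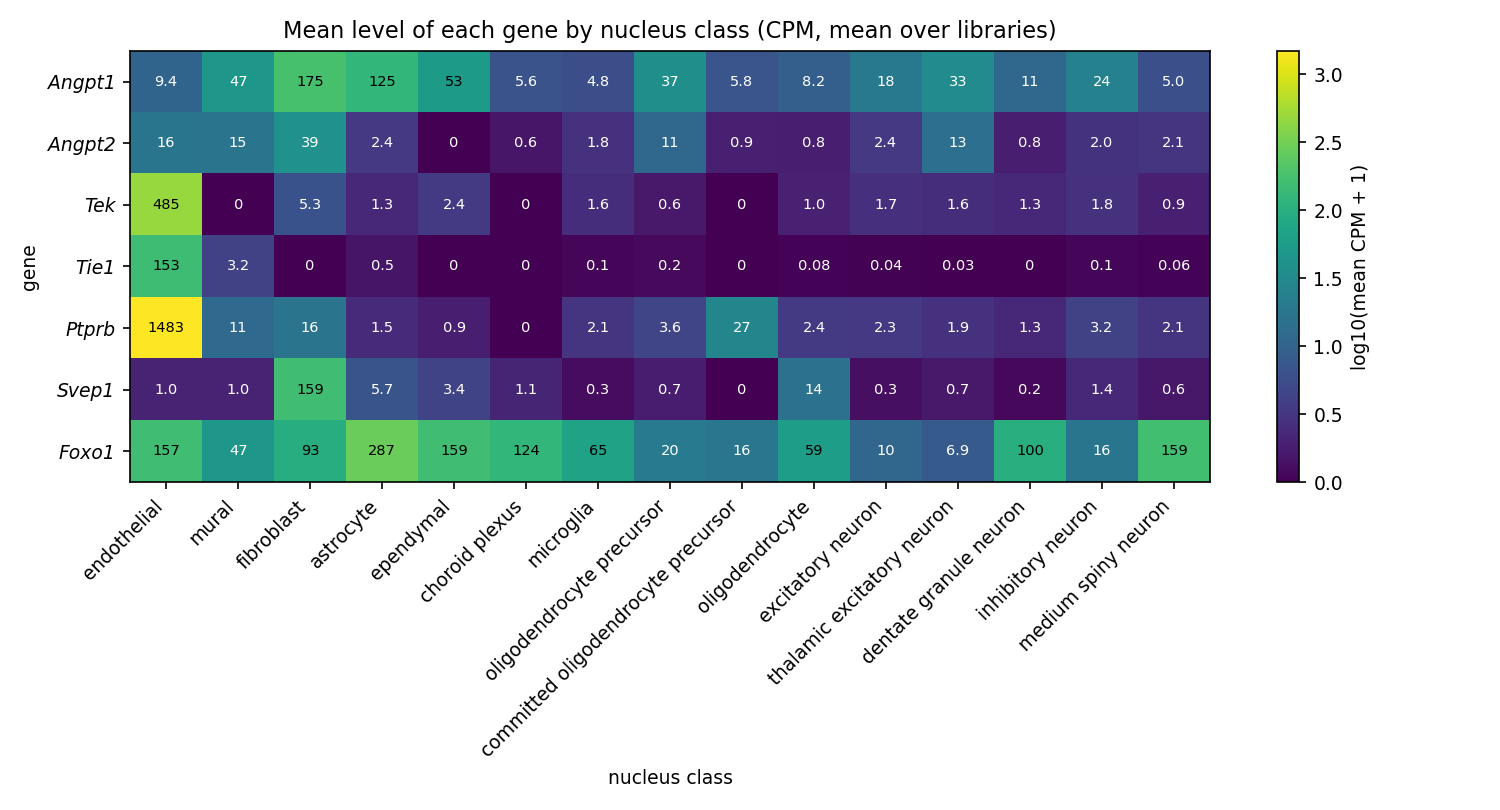
Mean level of each gene (rows) in each named nucleus class (columns), in CPM averaged over libraries with at least 10 nuclei of the class; the color is log10(mean CPM + 1) and the printed numbers are CPM. Tek, Tie1 and Ptprb peak in the endothelial column (485, 153 and 1483 CPM), Svep1 and Angpt2 in the fibroblast column (159 and 39.1 CPM), and Foxo1 in the astrocyte column (287 CPM).

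The level in a class and its share of a gene's UMIs were different quantities, because the neuronal classes and oligodendrocytes held far more nuclei than the vascular classes. Of all UMIs, endothelial nuclei held 81.1% of the 164 for Tie1, 58.7% of the 2152 for Ptprb and 41.6% of the 970 for Tek. Excitatory neurons, in which Tek averaged only 1.74 ± 0.55 CPM, held another 23.2% of the Tek UMIs. In single endothelial nuclei, with a median of 1348 UMIs, at least 1 UMI was read for Ptprb in 330 of 491 nuclei (67.2%, exact 95% binomial interval 62.9% to 71.3%), for Tek in 214 (43.6%, 39.1% to 48.1%) and for Tie1 in 107 (21.8%, 18.2% to 25.7%). Oligodendrocytes, which should lack these genes and had a median of 1960 UMIs, gave 0.322%, 0.180% and 0.0190% for Ptprb, Tek and Tie1. After each nucleus was thinned to 1000 UMIs, which left out 162 of the 491 endothelial nuclei, the endothelial shares were 61.1% for Ptprb, 31.3% for Tek and 15.2% for Tie1. In the unthinned endothelial nuclei 70 had UMIs of both receptor genes and 251 had at least 1 of either. The intervals cover counting error only.

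**Figure D2:**
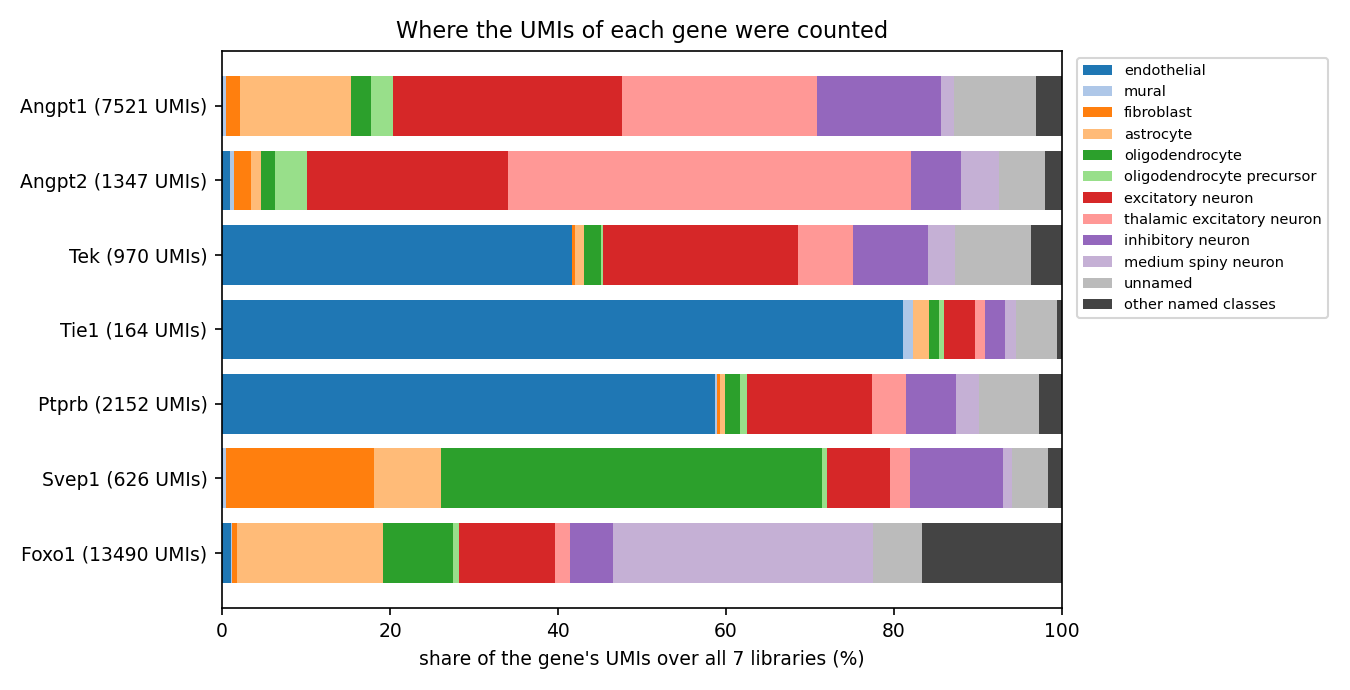
Share of each gene's UMIs (horizontal axis, percent of all its UMIs in kept nuclei of the 7 libraries) that fell in each nucleus class (colors), with the total number of UMIs beside the symbol. Endothelial nuclei hold 81.1% of the Tie1 UMIs and 41.6% of the Tek UMIs, thalamic excitatory neurons hold 48.0% of the Angpt2 UMIs, and oligodendrocytes hold 45.4% of the Svep1 UMIs.

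Tek lies on the plus strand of chromosome 4 (94739289 to 94874976, GRCm38, GENCODE release M21), and Tie1 on the minus strand of the same chromosome (118471191 to 118490061). Ptprb lies on the plus strand of chromosome 10 (116275523 to 116389535). Among the RefSeq promoter windows, 4 of the 7 genes had an entry (Tek, Tie1, Svep1 and Foxo1), while Angpt1, Angpt2 and Ptprb had none. In the 250 bases before the RefSeq start, a FOXO motif (TGTTTAC, either strand) was in none of the 4 windows, against 3.17% of the 32851 windows of all genes. The ETS core AGGAAG was in the windows of Tie1 and Svep1 and in 29.5% of all windows, and the KLF motif CACCC was in those of Tek and Tie1 and in 52.0% of all windows. These letter matches describe the windows only. By the GENCODE coordinates the window of Svep1 (58206597 to 58206846) lies inside the gene. That of Tie1 (118489850 to 118490099) overlaps its gene in part. The window of Tek is shown because Tek had the receptor gene pattern described above. It spans chr4:94739039-94739288 (GRCm38.p6, plus strand, RefSeq), and the capitals mark its only match, CACCC, which begins 166 bases before the start.
Tek: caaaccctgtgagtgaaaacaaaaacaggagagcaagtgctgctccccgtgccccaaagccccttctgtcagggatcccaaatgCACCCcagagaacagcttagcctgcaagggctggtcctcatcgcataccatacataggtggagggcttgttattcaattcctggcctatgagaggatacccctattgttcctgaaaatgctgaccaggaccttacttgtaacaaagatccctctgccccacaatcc

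The ligand gene Angpt1 was spread over perivascular, glial and neuronal classes and was low in endothelial nuclei. It averaged 175 ± 136 CPM in fibroblasts, 125 ± 44.9 CPM in astrocytes, 52.8 ± 82.9 CPM in ependymal nuclei, 46.5 ± 36.7 CPM in mural nuclei and 36.8 ± 30.1 CPM in oligodendrocyte precursors (SD, n = 7). Thalamic, inhibitory and other excitatory neurons followed at 32.5 ± 20.3, 23.6 ± 6.93 and 18.2 ± 7.51 CPM. Endothelial nuclei had 7 Angpt1 UMIs in all. Every pair of neighbours in this order had overlapping ranges over libraries, and fibroblasts stood above astrocytes in 4 of 7 libraries. In nuclei with at least 1000 UMIs, each thinned to that number, the order of these classes turned, with means of 109 CPM in fibroblasts and 125 CPM in astrocytes. The 53 nuclei of an unnamed cluster led by Reln, Ndnf and Trp73 had the highest pooled level of any cluster, 440 CPM, with an Angpt1 UMI in 28 of them. Only 2 libraries had at least 10 nuclei of this cluster, and they differed widely. The male Control AAV library of batch 1 had 572 CPM (35 UMIs, 16 nuclei). The female ANGPT2 AAV library of batch 2 had 138 CPM (2 UMIs, 12 nuclei). Within the other excitatory neurons, the 317 nuclei of 1 cluster (leading genes Col24a1, Gnb4, Nr4a2, Ntng2 and Oprk1) had a pooled level of 133 CPM. Within astrocytes, a cluster led by Etnppl and Slc6a11 stood at 163 CPM.

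Angpt2 was low in all classes. It averaged 39.1 ± 28.2 CPM in fibroblasts, 16.0 ± 13.6 CPM in endothelial nuclei, 15.5 ± 26.9 CPM in mural nuclei, 13.3 ± 6.51 CPM in thalamic excitatory neurons and 10.7 ± 8.32 CPM in oligodendrocyte precursors (SD, n = 7), and the ranges of neighbours in this order overlapped. These vascular means rest on 28 fibroblast, 13 endothelial and 6 mural UMIs. Thalamic excitatory neurons held 647 of the 1347 Angpt2 UMIs (48.0%), and 639 of these came from the cluster of 1940 nuclei led by Synpo2, Lef1 and Ntng1, at a pooled level of 18.3 CPM. The second thalamic cluster was at 0 to 6.48 CPM in the 6 libraries with at least 10 of its nuclei, against 12.7 to 20.7 CPM for the first cluster in the same libraries. An Angpt2 UMI was seen in 14.9% of thalamic excitatory nuclei, whose median depth was 15388 UMIs, and in 1.52% after thinning to 1000 UMIs, against 0.190% of oligodendrocytes as counted and 0.0380% after thinning.

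Angpt2 lies inside another gene, which limits what its counts can say if strand was not used in the counting. The gene occupies 18690263 to 18741562 on the minus strand of chromosome 8 (GRCm38), within Mcph1, a gene for a protein of chromosome condensation, on the plus strand (18595131 to 18803189). Whether the counting used strand or introns is not given in the sources used here. Mcph1 averaged 93.7 ± 16.7 CPM in thalamic excitatory neurons, 96.2 ± 10.1 CPM in inhibitory neurons and 89.6 ± 6.73 CPM in the other excitatory neurons, so it was at similar levels in classes where Angpt2 was at 13.3, 1.95 and 2.40 CPM. In fibroblasts, where Angpt2 was highest, Mcph1 averaged 30.2 ± 22.9 CPM. Mcph1 was looked up after the Angpt2 values had been seen. Angpt1 (chromosome 15, 42424723 to 42676977, minus strand), Svep1 (chromosome 4, 58042442 to 58206859, minus strand) and Foxo1 (chromosome 3, 52268336 to 52353221, plus strand) each overlap a noncoding gene on the opposite strand, with the same limit. On their own strand, Ptprb overlaps the annotated genes Gm47625 and Gm26495, and Foxo1 overlaps Gm38034.

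Svep1 was highest in fibroblasts, followed by oligodendrocytes. It averaged 159 ± 69.6 CPM in fibroblasts and 14.4 ± 4.29 CPM in oligodendrocytes (SD, n = 7), and the ranges of these classes over libraries did not overlap. Oligodendrocytes were by far the larger class and held 45.4% of the 626 Svep1 UMIs, against 17.6% in fibroblasts. A Svep1 UMI was seen in 17.8% of 360 fibroblasts (exact 95% interval 13.97% to 22.1%), 2.32% of 10549 oligodendrocytes and 0.0740% of 2704 microglia. Endothelial nuclei, where Tie1 was highest, had 1 Svep1 UMI in all.

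Foxo1 was the most widely read of the 7 genes, with 13490 UMIs. It averaged 287 ± 39.0 CPM in astrocytes, 159 ± 42.0 CPM in medium spiny neurons, 159 ± 46.4 CPM in ependymal nuclei, 157 ± 54.7 CPM in endothelial nuclei, 124 ± 25.5 CPM in choroid plexus (n = 5) and 99.9 ± 34.0 CPM in dentate granule neurons (SD, n = 7 elsewhere). The lowest class was thalamic excitatory neurons at 6.94 ± 3.80 CPM, although their median depth, 15388 UMIs per nucleus, was the highest of the 15 classes. Neighbours in this order overlapped over libraries, except that astrocytes, at 220.3 to 333 CPM, stood above each medium spiny library, the highest of which had 208 CPM. Medium spiny neurons held 31.0% of the Foxo1 UMIs. Within them, the main cluster (led by Rarb, Rgs9 and Drd2) stood at 105 to 243 CPM in its libraries, a cluster led by Drd3 at 0 to 33.5 CPM, and another, led by Cmss1, Filip1l and AY036118, at 26.7 to 85.1 CPM in the 3 libraries with at least 10 of its nuclei.

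For each gene, the genes with the most similar level across the 15 named classes were found by Pearson's r of log2(CPM + 1) among 16725 genes with at least 200 UMIs (16726 for Tie1, which is itself below that number). The nearest genes were endothelial ones for the receptor genes: Cldn5, a tight junction protein (r = 0.965), Gm609 and Pglyrp1 for Tek, and Erg, an ETS transcription factor (r = 0.971), Ly6c1 and Zfp366 for Tie1. For Ptprb they were Tead4 (r = 0.920), Nomo1 and Egfl7. For Svep1 they were the fibroblast genes Efemp1 (r = 0.894), Aldh1a2 and Errfi1. Angpt1 was nearest to Pdgfrl (r = 0.897), Proca1 and Fzd10os, Angpt2 to Adgra2 (r = 0.873), Mcub and Gm42595, and Foxo1 to Dhx40 (r = 0.824), Fam214a and Pld2. The classes share their libraries, and Cldn5, Erg, Ly6c1 and Egfl7 are among the markers that named the endothelial class. These values are descriptions.

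The comparison of the groups asks whether the ANGPT2 virus changed the expression of the ligands, the receptors and their regulators. The gene carried by the virus was looked at first. Angpt2 was at 3.77, 4.80, 2.82 and 2.21 CPM in ANGPT2 AAV libraries (female and male of batch 1, then female and male of batch 2), against 4.29, 3.79 and 3.91 CPM in Control AAV libraries (female and male of batch 1, then male of batch 2). The groups overlapped, and the log2 change was -0.16 (SE 0.25, edgeR quasi-likelihood test with Benjamini-Hochberg adjustment, adjusted p = 0.999), with a difference of mean log2 CPM of 0.05 in batch 1 and -0.42 in batch 2. The matrices count mouse genes, and RNA of the virus counted under no mouse gene would not appear in them. Angpt2 in endothelial nuclei was 1, 0, 6 and 1 UMIs in ANGPT2 AAV libraries and 1, 2 and 2 UMIs in Control AAV libraries, too few to compare.

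In whole libraries 0 of 19972 genes tested passed an adjusted p of 0.05 with edgeR (0.0%), 539 (2.7%) had an unadjusted p below 0.05, and 767 (3.84%) had libraries that did not overlap between the groups. None of the 7 genes was in any of these sets. DESeq2 called 2 genes, of which none was one of the 7. In the 15 nucleus classes together, edgeR called 0 of 121206 gene and class pairs (0.0%), 4884 (4.03%) had an unadjusted p below 0.05, and DESeq2 called 26 in 2 classes.

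The receptor genes and Ptprb had higher average levels in whole ANGPT2 AAV libraries, by amounts within the spread between libraries. Ptprb was at 8.23, 4.71, 14.3 and 8.41 CPM in ANGPT2 AAV libraries and 4.28, 3.28 and 7.99 CPM in Control AAV libraries, with a change of 0.91 on the log2 scale (SE 0.41, edgeR unadjusted p = 0.0553, adjusted p = 0.999). Tie1 was at 0.729, 0.289, 1.30 and 0.477 CPM in ANGPT2 AAV libraries and 0.380, 0.184 and 0.499 CPM in Control AAV libraries, a log2 change of 1.12 (SE 0.57, edgeR adjusted p = 0.999). Tek was at 3.11, 2.43, 5.56 and 3.69 CPM in ANGPT2 AAV libraries and 1.98, 1.83 and 4.16 CPM in Control AAV libraries, a log2 change of 0.61 (SE 0.38, edgeR adjusted p = 0.999). The groups overlapped for all 3 genes, and the male Control AAV library of batch 2 was the highest control each time. The highest value of each group came from batch 2, and within the batches the difference of mean log2 CPM was 0.70 and 0.68 for Ptprb, 0.68 and 0.84 for Tie1, and 0.49 and 0.34 for Tek. Without the female ANGPT2 AAV library of batch 2 the log2 changes were 0.53 for Ptprb, 0.61 for Tie1 and 0.30 for Tek. Without the male Control AAV library of batch 1 they were 0.73 for Tie1 and 0.38 for Tek, and without the male Control AAV library of batch 2 the change of Tek was 1.003.

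In sums over whole libraries more endothelial nuclei and more RNA per endothelial nucleus cannot be told apart, so the number of endothelial nuclei is given beside these values. Endothelial nuclei made up 1.53%, 0.797%, 1.17% and 0.753% of kept nuclei in ANGPT2 AAV libraries and 0.862%, 0.584% and 0.586% in Control AAV libraries. The means were 1.06% ± 0.36 (SD, n = 4) in the ANGPT2 AAV group and 0.677% ± 0.160 (SD, n = 3) in the Control AAV group, a difference of 0.384 percentage points (two-sided exact permutation test, p = 0.171, where the smallest p possible is 0.0286). The difference was 0.439 points in batch 1 and 0.375 points in batch 2, and 0.229 points without the female ANGPT2 AAV library of batch 1, which had the highest share and stood apart in choroid plexus markers. Outside the endothelial class, Tek was at 1.75 ± 0.32 CPM in the ANGPT2 AAV group and 1.68 ± 0.46 CPM in the Control AAV group, a ratio of 1.04 against 1.39 in whole libraries. Ptprb outside the endothelial class was at 3.03 ± 0.67 CPM in the ANGPT2 AAV group and 2.19 ± 0.38 CPM in the Control AAV group, a ratio of 1.38 against 1.72 in whole libraries (two-sided exact permutation tests outside the class, p = 0.857 for Tek and 0.171 for Ptprb). Tie1 outside the class was at 0.102 ± 0.076 CPM in the ANGPT2 AAV group and 0.0606 ± 0.0858 CPM in the Control AAV group. The part of the nucleus numbers in the whole-library values was not tested.

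**Figure D3:**
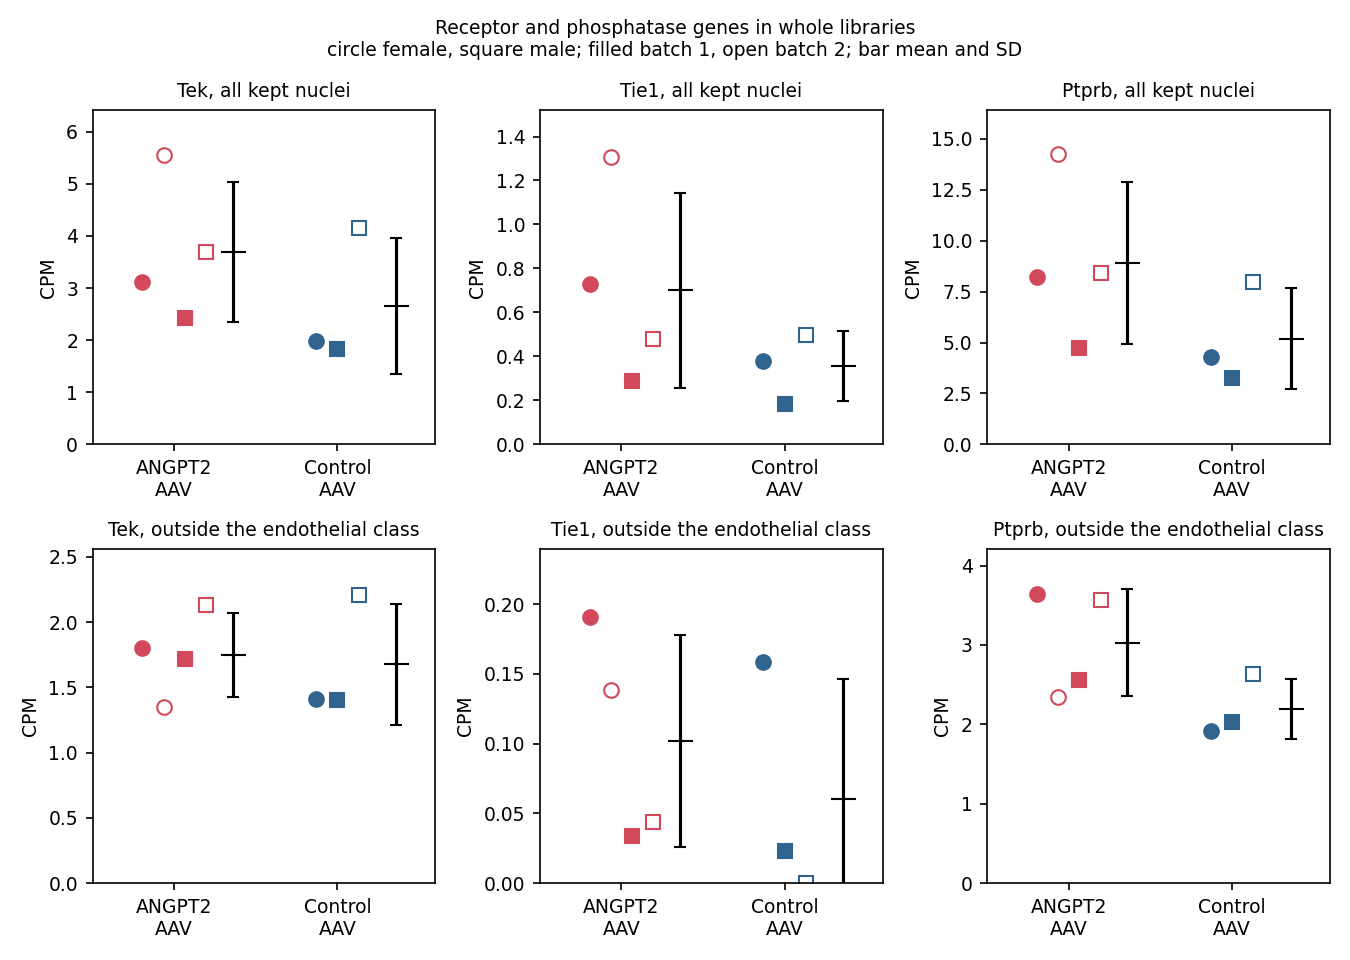
Levels of Tek, Tie1 and Ptprb (vertical axes, CPM) in all kept nuclei (top row) and in nuclei outside the endothelial class (bottom row), 1 point per library, ANGPT2 AAV left and Control AAV right; the bars are the mean and SD of 4 and 3 libraries. The groups overlap in all panels, and the open symbols of batch 2 are high in the top row (Tek 5.56 and 3.69 CPM in ANGPT2 AAV, 4.16 CPM in Control AAV).

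Within endothelial nuclei the 4 genes that could be tested did not pass the threshold. Tek was at 335, 449, 744 and 536 CPM in ANGPT2 AAV libraries and 261, 354 and 716 CPM in Control AAV libraries, a log2 change of 0.24 (SE 0.38, edgeR adjusted p = 0.999). Tie1 was at 137, 160.4, 206 and 149 CPM in ANGPT2 AAV libraries and 102, 134 and 183 CPM in Control AAV libraries, a log2 change of 0.27 (SE 0.32, edgeR adjusted p = 0.999). Ptprb was at 1171, 1358, 2098 and 1666 CPM in ANGPT2 AAV libraries and 1082, 1044 and 1965 CPM in Control AAV libraries, a log2 change of 0.21 (SE 0.31, edgeR adjusted p = 0.999). The groups overlapped for each gene, and batch 2 gave the highest value in each group. Foxo1 was at 121, 171, 248 and 149 CPM in ANGPT2 AAV libraries and 79.9, 134 and 198 CPM in Control AAV libraries, a log2 change of 0.39 (SE 0.38, edgeR adjusted p = 0.999).

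Within batches the endothelial difference of mean log2 CPM was 0.34 and -0.19 for Tek, 0.31 and -0.07 for Tie1, 0.25 and -0.09 for Ptprb and 0.42 and -0.05 for Foxo1 (batch 1, then batch 2). By this mean each of the 4 was higher in ANGPT2 AAV libraries in batch 1 and lower in batch 2, where the Control AAV group had 1 library. In batch 2 the female ANGPT2 AAV library lay above that Control AAV library for each of the 4 genes, and the male lay below it. No treatment by batch term passed the threshold for any of the 41 gene and fit pairs in which it could be tested, and 6 pairs had an unadjusted p below 0.05, none of them endothelial. Without the female Control AAV library of batch 1 the endothelial log2 change of Tek was -0.02, and without the male Control AAV library of batch 2 it was 0.73. Without the female ANGPT2 AAV library of batch 1, which stood apart in choroid plexus markers, the changes were 0.41 for Tek, 0.35 for Tie1, 0.32 for Ptprb and 0.55 for Foxo1. The part of the other classes' markers in these values was not tested. Of the 2787 genes tested in endothelial nuclei, 0 passed (0.0%) and 56 (2.01%) had an unadjusted p below 0.05, while DESeq2 called 0. The libraries of the groups did not overlap for 112 genes (4.02%) and for 0 of these 4.

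**Figure D4:**
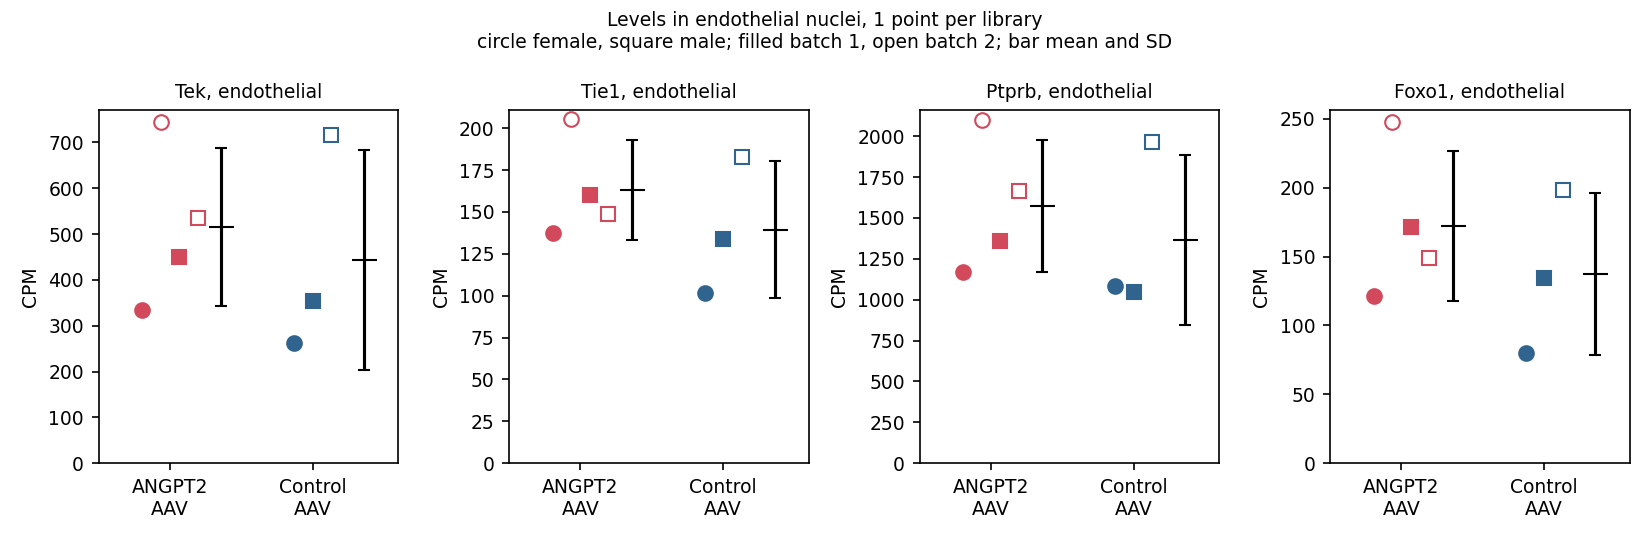
Levels of Tek, Tie1, Ptprb and Foxo1 in endothelial nuclei (vertical axes, CPM), 1 point per library, ANGPT2 AAV left and Control AAV right; the bars are the mean and SD of 4 and 3 libraries. The groups overlap in each panel, and the open symbols of batch 2 include the highest value of each group (Ptprb 2098 CPM in ANGPT2 AAV, 1965 CPM in Control AAV).

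Over all classes together, 35 gene and class pairs of the 7 genes could be tested, endothelial pairs included, and 0 passed the threshold. Of these, 7 had an unadjusted edgeR p below 0.05, against 4.03% of all gene and class pairs. These were 3 higher and 4 lower in ANGPT2 AAV libraries, against 1.78% and 2.25% of all pairs. The libraries of the groups did not overlap in 5 of the 35, against 5.8% of all pairs, with ANGPT2 AAV above in 2 (1.72%) and below in 3 (4.08%). The pairs share their libraries and some of them share a gene, so they are not independent. The 7 pairs were Svep1 and Angpt1 in fibroblasts, Angpt1 in astrocytes and in oligodendrocyte precursors, Foxo1 in astrocytes and in excitatory neurons, and Ptprb in excitatory neurons.

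Fibroblasts gave the largest of these differences. Svep1 was at 175, 199.996, 233 and 233 CPM in the ANGPT2 AAV libraries and 52.1, 109 and 112 CPM in the Control AAV libraries. All 4 ANGPT2 AAV libraries lay above all 3 Control AAV libraries, which was so for 3.16% of the 2786 genes tested in fibroblasts, while 3.95% had an unadjusted p below 0.05. The log2 change was 1.10 (SE 0.33, edgeR unadjusted p = 0.00526, adjusted p = 0.998), the within-batch values were 1.12 and 0.89 (batch 1, then batch 2), and the comparison rests on 20, 22, 15 and 8 UMIs in ANGPT2 AAV libraries and 6, 31 and 8 UMIs in Control AAV libraries. In oligodendrocytes Svep1 was at 14.2, 19.7, 13.5 and 15.9 CPM in ANGPT2 AAV libraries and 8.32, 10.1 and 19.2 CPM in Control AAV libraries, with a log2 change of 0.53 (SE 0.27, edgeR adjusted p = 1.00) and within-batch values of 0.80 and -0.19.

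Angpt1 in fibroblasts ran the other way, at 96.3, 81.8, 202 and 58.2 CPM in ANGPT2 AAV libraries and 234, 106 and 447 CPM in Control AAV libraries. The groups overlapped, and the log2 change was -1.13 (SE 0.49, edgeR unadjusted p = 0.0371, adjusted p = 0.998), and the within-batch values were -0.73 and -1.90. Foxo1 in fibroblasts was at 70.02, 90.9, 77.8 and 58.2 CPM in ANGPT2 AAV libraries and 104, 113 and 139.7 CPM in Control AAV libraries. These groups did not overlap, which was so in the same direction for 2.01% of genes, and the log2 change was -0.62 (SE 0.36, edgeR adjusted p = 0.998). Fibroblasts were 0.513% ± 0.123 of kept nuclei in the ANGPT2 AAV group and 0.828% ± 0.217 in the Control AAV group, and the male ANGPT2 AAV library of batch 2 had 23 of them. Angpt1 and Foxo1 were both at 58.2 CPM in that library, below the level of Svep1 there, whose few UMIs are given above. Fibroblasts held 1.65% of the 7521 Angpt1 UMIs and 0.586% of the 13490 Foxo1 UMIs. The values of these 2 genes thus rest on few counts, and batch 2 had 1 Control AAV library.

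In astrocytes Angpt1 was at 63.8, 114 and 144 CPM in the female of batch 1, the male of batch 1 and the female of batch 2 of the ANGPT2 AAV group and at 72.9 CPM in its male of batch 2, against 191, 146 and 142 CPM in Control AAV libraries. One ANGPT2 AAV library overlapped the controls, and the log2 change was -0.61 (SE 0.26, edgeR unadjusted p = 0.0360, adjusted p = 0.994), and the within-batch values were -0.95 and -0.29. The makeup of the class also differed between libraries, with overlap between the groups. The cluster led by Etnppl and Slc6a11 was 29.8%, 37.8%, 19.9% and 12.02% of astrocytes in ANGPT2 AAV libraries and 45.3%, 51.7% and 25.9% in Control AAV libraries. Within that cluster Angpt1 was at 102, 123, 184 and 158 CPM in ANGPT2 AAV libraries and 159, 209.8 and 202 CPM in Control AAV libraries. Within the other astrocyte cluster, led by Prex2 and Slco1c1, it was at 48.1, 109.6, 136 and 63.0 CPM in ANGPT2 AAV libraries and 211, 81.9 and 125 CPM in Control AAV libraries. The part of this makeup in the class value was not tested.

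Foxo1 in astrocytes was at 306, 333, 285 and 308 CPM in ANGPT2 AAV libraries and 220.3, 249.5 and 306 CPM in Control AAV libraries, a log2 change of 0.33 (SE 0.15, edgeR unadjusted p = 0.0458, adjusted p = 0.994). The groups overlapped through the male Control AAV library of batch 2. In the 9638 genes tested in astrocytes 3.42% had an unadjusted p below 0.05, and 2 of the 2 genes tested here did, in opposite directions.

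**Figure D5:**
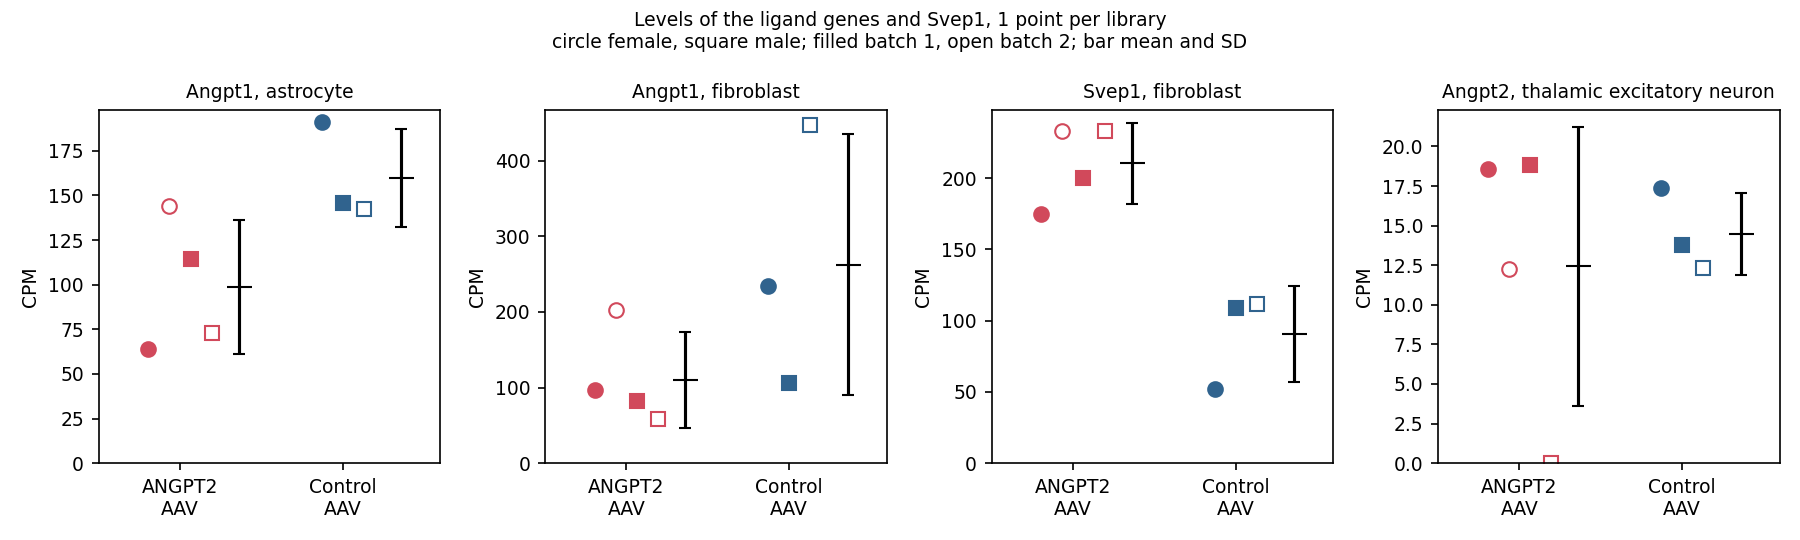
Levels (vertical axes, CPM) of Angpt1 in astrocytes and fibroblasts, Svep1 in fibroblasts and Angpt2 in thalamic excitatory neurons, 1 point per library, ANGPT2 AAV left and Control AAV right; the bars are the mean and SD of 4 and 3 libraries. Svep1 shows no overlap (175 to 233 CPM in ANGPT2 AAV, 52.1 to 112 CPM in Control AAV), while the other panels overlap.

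In oligodendrocyte precursors Angpt1 was at 29.0, 45.1, 16.9 and 10.9 CPM in ANGPT2 AAV libraries and 73.0, 79.6 and 3.36 CPM in Control AAV libraries. The male Control AAV library of batch 2, with 1 UMI, was the lowest of all, and the log2 change of -1.03 (SE 0.40, edgeR unadjusted p = 0.0161, adjusted p = 0.913) split into -1.003 in batch 1 and 1.46 in batch 2. The treatment by batch term of this gene had an unadjusted p of 0.00805 and an adjusted p of 0.649 (edgeR), and 5.02% of the 8518 genes tested in this class had an unadjusted p below 0.05 in the comparison of the groups. Angpt1 in thalamic excitatory neurons also split, with a log2 change of -0.52 (SE 0.35, edgeR adjusted p = 1.00), -0.80 in batch 1 and 0.13 in batch 2, and a batch term with an unadjusted p of 0.00501 and an adjusted p of 0.459. In the other excitatory neurons Angpt1 had a log2 change of 0.53 (SE 0.39, edgeR adjusted p = 0.820), with within-batch values of 0.69 and 0.04. The cluster led by Col24a1 and Gnb4, which was rich in Angpt1, was 4.25%, 2.65%, 3.41% and 2.17% of this class in ANGPT2 AAV libraries and 2.16%, 0.944% and 3.20% in Control AAV libraries. Within that cluster Angpt1 was at 107, 158, 190 and 223 CPM in ANGPT2 AAV libraries and 80.6, 41.6 and 266 CPM in Control AAV libraries. The part of this cluster in the class value was not tested.

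Angpt2 in thalamic excitatory neurons, the class with the largest share of its UMIs, was at 18.6, 18.8, 12.3 and 0 CPM in ANGPT2 AAV libraries and 17.4, 13.8 and 12.3 CPM in Control AAV libraries. The value of 0 came from the male of batch 2, which had 24 nuclei of the class, and the log2 change was 0.18 (SE 0.26, edgeR adjusted p = 1.00). In the other excitatory neurons Angpt2 had a log2 change of -0.27 (SE 0.29, edgeR adjusted p = 0.856).

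Ptprb and Foxo1 did not overlap between the groups in the other excitatory neurons, at low levels. The mean of Ptprb was 2.33 CPM in this class and 1.86 CPM in thalamic excitatory neurons. Oligodendrocytes, which should lack this gene, averaged 2.43 CPM and microglia 2.11 CPM, so both neuronal values lie at that floor. Ptprb was at 3.03, 2.74, 2.18 and 3.10 CPM in ANGPT2 AAV libraries and 1.97, 1.75 and 1.57 CPM in Control AAV libraries, a log2 change of 0.68 (SE 0.25, edgeR unadjusted p = 0.0204, adjusted p = 0.785). Foxo1 was at 8.25, 8.48, 8.90 and 9.15 CPM in ANGPT2 AAV libraries and 12.6, 14.9 and 9.68 CPM in Control AAV libraries, a log2 change of -0.46 (SE 0.19, edgeR unadjusted p = 0.0323, adjusted p = 0.785), but its difference of mean log2 CPM was -0.75 in batch 1 and 0.14 in batch 2. The log2 values use the library scaling factors of the edgeR fit, whereas the CPM and the overlap do not. In batch 2 Foxo1 was therefore lower by CPM and higher by the scaled values, so its separation depends on the scale. In this class 6.01% of 16496 genes had an unadjusted p below 0.05, 1.56% had all ANGPT2 AAV libraries above every Control AAV library and 3.39% had them all below. In thalamic excitatory neurons Ptprb ran opposite, at 1.89, 1.79, 1.42 and 0 CPM in ANGPT2 AAV libraries and 2.56, 2.70 and 2.64 CPM in Control AAV libraries, with no overlap and a log2 change of -0.57 (SE 0.34, edgeR adjusted p = 1.00). All ANGPT2 AAV libraries lay below every Control AAV library for 4.87% of the 13628 genes tested there. The Ptprb value of 0 came from the male ANGPT2 AAV library of batch 2, which had 24 thalamic excitatory nuclei, too few for such a level.

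Foxo1 in whole libraries was highest in the 2 libraries with the largest shares of medium spiny neurons. It was at 35.4, 31.3, 48.4 and 93.9 CPM in ANGPT2 AAV libraries and 23.6, 28.9 and 76.5 CPM in Control AAV libraries, where medium spiny neurons made up 4.00%, 2.00%, 7.47% and 28.9% of kept nuclei in ANGPT2 AAV libraries and 1.61%, 0.155% and 17.9% in Control AAV libraries. The log2 change was 0.42 (SE 0.48, edgeR adjusted p = 0.999) in whole libraries and 0.02 (SE 0.26, edgeR adjusted p = 1.00) within medium spiny neurons, and without the male ANGPT2 AAV library of batch 2 the change in whole libraries was -0.05. The makeup of the class differed between libraries: the cluster led by Cmss1 and Filip1l was 45.3% of medium spiny neurons in the male ANGPT2 AAV library of batch 2 and 6.04% in the male Control AAV library of batch 2, while Foxo1 in the main cluster was at 243 CPM in that ANGPT2 AAV library and 224 CPM in that Control AAV library. The parts of the medium spiny share and of this makeup in the values above were not tested. Angpt1 and Svep1 in whole libraries had log2 changes of -0.002 (SE 0.23) and 0.14 (SE 0.27), each with an edgeR adjusted p of at least 0.999.

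The other genes of the pathway were followed as lists. Of 38 genes for partners and downstream parts of TIE2 signalling, 36 could be tested in whole libraries and 0 passed; 25 were higher and 11 lower, with a median log2 change of 0.09, against -0.02 and 46.1% higher for all genes. In endothelial nuclei 19 were tested and 0 passed; 10 were higher and 9 lower, with a median of 0.05 against 0.003 and 50.4% higher for all genes. The smallest p there belonged to Nos3, the endothelial nitric oxide synthase, with a log2 change of 0.35 (SE 0.30), followed by Grb14, an adaptor protein, at -0.30 (SE 0.36) and Cdh5, the adherens junction cadherin of endothelium, at -0.26 (SE 0.33), all with an edgeR adjusted p of 0.999.

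Of 22 genes listed as FOXO1 targets, 20 could be tested in whole libraries and 0 passed; 12 were higher and 8 lower, with a median log2 change of 0.02. Apln, which encodes the peptide apelin, had a log2 value of 0.72 (SE 0.27, unadjusted p = 0.0255) and Cat, which encodes catalase, one of -0.47 (SE 0.19, unadjusted p = 0.0336), both with an edgeR adjusted p of 0.999. In endothelial nuclei 6 targets were tested and 0 passed; 1 was higher and 5 lower, with a median of -0.18. The smallest p there belonged to Map1lc3b, an autophagy gene, at -0.34 (SE 0.35), Klf4, a transcription factor, at -0.38 (SE 0.43) and Sesn1, a stress response gene, at -0.19 (SE 0.32), all with an edgeR adjusted p of 0.999. Of 7 angiopoietin-like genes, 6 could be tested in whole libraries, with 0 past the threshold, 3 higher and 3 lower, and 0 could be tested in endothelial nuclei.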

How the data were processed

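Single-nucleus RNA counts of 7 libraries were used as deposited: the matrices hold raw UMI counts, not normalized. The authors ran Cell Ranger 6.1.2 against mm10 (GRCm38), per the submitters' processing notes; whether introns or strand were used in the counting is not given in the sources used here.

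Barcodes with at least 300 genes and at most 5% mitochondrial UMIs were kept (58169 of 58286). In each library, nuclei with many simulated doublets among their 50 nearest neighbours (3939) were removed as doublets, which left 54230 nuclei. Nuclei were clustered with scanpy 1.11.5 (2500 variable genes without the 7 genes, sex-linked or mitochondrial genes, 40 components, 15 neighbours, Leiden resolution 1), which gave 41 clusters. Names came from fixed marker lists, with at least 3 detected markers. The members and lists were chosen with earlier results of these data known.

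Counts were added up over the nuclei of a class in each library (at least 10 nuclei) and tested with edgeR 4.0.16 (quasi-likelihood, TMM, filterByExpr with a minimum count of 10, Benjamini-Hochberg over all tested genes, threshold 0.05); treatment was the only term. All 7 libraries entered each fit, except choroid plexus with 5. Within-batch values are differences of mean log2 CPM scaled with TMM factors. The CPM of libraries and the overlap between groups were taken without these factors. A log2 change is ANGPT2 AAV over Control AAV. The choroid plexus class entered no result named here beyond Foxo1. The named genes were the 7 members, the 3 genes most like each member over classes, and, from each list, the genes with an unadjusted p below 0.05 or otherwise the 3 smallest p. A gene of the TIE2 partner list that this rule names in astrocytes is not reported here. The test was tested on simulated counts. At a 2-fold change it recovered 48 of 100 genes in whole libraries and 16 of 86 in endothelial sums. At a 4-fold change it recovered 82 of 97 and 76 of 82, with 7 false calls in whole libraries and 3 in endothelial sums. All these genes were changed in the same simulated run. Where few genes change, the adjusted threshold is harder to pass, so the recovery of a single gene can be lower. Changes of 2-fold or less, and larger ones of a single gene, could therefore be missed, most of all in endothelial nuclei. Alternatives were RLE factors, DESeq2 1.42.0, no filter, batch and sex terms, each library left out, doublets kept, resolution 2 and the members allowed among variable genes. The labels give the replicate number in a field named batch, which the replicate block uses; the libraries of a batch differ in sex or treatment and are not stated to share an animal. Deviations from the group means in libraries of the same batch correlated at 0.063 to 0.469 in whole libraries and at -0.148 to 0.414 in endothelial sums, so not every pair deviated together.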

Additional observations from a re-analysis of the deposited data

How the results depend on the processing

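No member passed the threshold with edgeR in whole libraries, in endothelial nuclei or in another class under the settings run for it, except that 1 member and class pair (Angpt1 in oligodendrocyte precursors, log2 change -1.03, adjusted p = 0.04999) passed with no filter on low counts. Over all genes DESeq2 called 2 in whole libraries, and the fit with no filter called 5 in endothelial nuclei; all other settings, leaving out a library included, called 0 in both. Over the 15 classes together edgeR called 0 of all genes, against 312 with no filter, 10 with sex as a term, 3 with the replicate block, 42 with the replicate block and sex, and 0 to 20 with 1 library left out. With the batch number as a replicate block, the log2 change was 0.46 for Tek, 0.92 for Tie1 and 0.73 for Ptprb in whole libraries and 0.13, 0.21 and 0.12 in endothelial nuclei, and the block changed no call of a member.

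Of 383 log2 changes of 25 member and class results in other settings, 15 changed direction, and 20 of the results never did. Angpt1 in whole libraries turned to 0.0077 with RLE factors and 0.0086 with DESeq2, and leaving out 1 library gave -0.23 to 0.14. Leaving out 1 library gave -0.040 to 0.37 for Svep1 and -0.054 to 1.06 for Foxo1 in whole libraries, and -0.024 to 0.73 for Tek, 0.081 to 0.47 for Tie1, 0.046 to 0.55 for Ptprb and 0.094 to 0.70 for Foxo1 in endothelial nuclei. For Tek, Tie1 and Ptprb in whole libraries it gave 0.30 to 1.003, 0.61 to 1.42 and 0.53 to 1.28. Foxo1 in medium spiny neurons was -0.076 with the replicate block, -0.11 with the replicate block and sex, -0.022 with doublets kept, -0.12 with the members among variable genes, and -0.12 to 0.24 with 1 library left out. The causes were not tested. Svep1 in fibroblasts stayed between 0.85 and 1.38, with adjusted p from 0.471 to 1.00. The endothelial share difference was 0.229 to 0.487 points with 1 library left out, and 0.312, 0.415 and 0.335 points with doublets kept, at resolution 2 and with the members among variable genes, which was added after seeing the data, as were the values outside the endothelial class.

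Endothelial sums held 10 to 34 Tie1 UMIs per library, and 3 of the 7 genes were too low there to test. In nuclei of at least 1000 UMIs, thinned to that number, the mean endothelial Tie1 level was 201 CPM.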

Other observations

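In astrocytes 29 genes of the TIE2 partner list could be tested, of which 0 passed with edgeR, 19 were higher and 10 lower, with a median log2 change of 0.10 against 0.0004 for all genes. Of 15 FOXO1 targets tested in astrocytes, where Foxo1 itself was highest, 0 passed, 4 were higher and 11 lower, with a median of -0.04, against 50.1% higher and a median of 0.0004 for all genes.

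The share of endothelial nuclei with a UMI of the receptor genes was close in the groups as counted and differed more after thinning. A Tek UMI was seen in 43.9% of 328 ANGPT2 AAV nuclei and 42.9% of 163 Control AAV nuclei, and in 35.2% of 213 and 24.1% of 116 nuclei after thinning to 1000 UMIs. For Tie1 the shares were 22.9% in ANGPT2 AAV nuclei and 19.6% in Control AAV nuclei as counted, and 16.9% and 12.1% after thinning. For Ptprb they were 63.7% in ANGPT2 AAV nuclei and 74.2% in Control AAV nuclei as counted, and 59.6% and 63.8% after thinning. The median depth was 1255.5 UMIs in ANGPT2 AAV and 1520.0 UMIs in Control AAV endothelial nuclei, and nuclei of a library are not replicates, so these shares were not compared by a test.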
